A study of Mus musculus with 6 samples.

Results

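The DNA repair families of the mouse genome were followed in fetal liver cells sorted and labelled as erythroid precursors. The members were the genes of the deposited table whose symbol starts with Fanc, Brca, Rad5, Xrcc, Msh, Mlh, Ercc or Parp followed by a further digit or letter, with pseudogene names left out. This gave 56 of 19436 genes, under 55 symbols, because Rad54b is listed under 2 Ensembl identifiers; 53 of them are described and counted here. The rule reads names and no measured value. A prefix is not a function: Parp genes beyond Parp1, Parp2 and Parp3 act mainly outside DNA repair, Ercc6l encodes a mitotic helicase, Rad54l2 a nuclear receptor cofactor, and Xrcc6bp1 a mitochondrial protease.

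RNA was measured in 6 libraries, 3 from wild type and 3 from -77-/- embryos, all of strain C57BL/6, at E14.5, an embryonic stage in days, and with no treatment. The -77 element is a distant enhancer of Gata2, a transcription factor gene that early blood cells need, and -77-/- embryos lack it on both alleles. The labels name no promoter or Cre for the deletion. The cells were sorted from fetal liver as CD71 medium and Ter119 negative, a gate for erythroid precursors before they carry the mature red cell marker, and each library was made from 10 ng of total RNA. The labels do not say whether each library came from its own embryo or from a pool, so the p-values measure only the spread between these samples, which may be technical.

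The cell type label was checked against marker genes. Of 20 tested erythroid markers, 19 were lower in the -77-/- libraries and none higher, with a median log2 fold change of -4.62; their summed level was 66852 to 71922 normalized reads in wild type and 4411 to 9986 in -77-/- libraries. All 15 monocyte markers were higher, with a summed level of 2511 to 4091 in wild type and 41493 to 54719 in -77-/- libraries, and 24 of 26 interferon-stimulated genes were higher, with a summed level of 4313 to 5034 and 15639 to 19063. Of other cell types, 6 of 16 granulocyte markers were higher and 6 lower (summed level 15184 to 27301 in wild type and 46565 to 50243 in -77-/-), 9 of 12 lymphoid markers were higher (1202 to 1263 and 3720 to 6715), 1 of 7 megakaryocyte markers was higher and 2 lower (547 to 892 and 350.0 to 741), and 1 of 4 mast cell markers was lower (239 to 341 and 153 to 196). None of the erythroid, monocyte or interferon-stimulated genes was at 0 in all libraries of a genotype. The genotypes thus share a cell type label but not the level of these markers, and the part of this difference in any repair gene result was not tested. In such bulk samples, fewer cells of a type and less RNA per cell cannot be told apart. Gata2 itself had 128, 87.8 and 61.5 normalized reads in the wild type libraries and 74.2, 26.2 and 34.2 in the -77-/- libraries, which overlap (limma adjusted p = 0.18). Wild type replicate 2 was the one library with high Xist, the RNA of the inactive X chromosome (41877 normalized reads, against 28.5 to 63.2 in the other 5). Depth was 16516338 to 20468899 reads per library.

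Cells repair DNA through several pathways. Breaks of both strands are either joined directly, by end joining through the Ku heterodimer, or copied back from the sister chromatid by homologous recombination with BRCA1 and BRCA2. Crosslinks are handled by the Fanconi anaemia proteins, copying errors by mismatch repair, bulky lesions by nucleotide excision repair, and nicks by PARP1 with XRCC1. Blood progenitors depend on these pathways, and inherited loss of Fanconi genes leads to bone marrow failure. Several other PARP genes are known as interferon-induced genes of myeloid and other immune cells.

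The promoters of 6 members are shown because the results turn on their RNA: both Ku genes, lower in -77-/- libraries, and the 4 higher PARP genes with an entry in the RefSeq promoter table. Each line holds the 250 bases before the annotated start, 5′ to 3′ on the gene's strand, on build GRCm38.p6. Capitals mark matches to an interferon-stimulated element (GAAANNGAA), a gamma-activated site (TTCNNNGAA), an E2F site (TTTCCCGC or TTTGGCGC) or a GATA site (AGATAA), searched on both strands. The windows are Xrcc5 chr1:72307171-72307420, plus strand, Xrcc6 chr15:82016119-82016368, plus strand, Parp3 chr9:106476950-106477199, minus strand, Parp4 chr14:56575369-56575618, plus strand, Parp8 chr13:117025532-117025781, minus strand, and Parp12 chr6:39118350-39118599, minus strand.
Xrcc5: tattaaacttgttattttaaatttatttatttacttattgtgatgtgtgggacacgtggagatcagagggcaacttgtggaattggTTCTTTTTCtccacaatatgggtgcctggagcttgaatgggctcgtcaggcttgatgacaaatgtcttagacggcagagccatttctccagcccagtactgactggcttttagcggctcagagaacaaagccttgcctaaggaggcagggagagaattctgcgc
Xrcc6: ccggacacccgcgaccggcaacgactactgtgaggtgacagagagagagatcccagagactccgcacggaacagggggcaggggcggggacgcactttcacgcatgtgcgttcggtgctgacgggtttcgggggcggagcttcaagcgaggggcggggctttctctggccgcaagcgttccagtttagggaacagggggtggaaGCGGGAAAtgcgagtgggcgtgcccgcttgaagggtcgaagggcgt
Parp3: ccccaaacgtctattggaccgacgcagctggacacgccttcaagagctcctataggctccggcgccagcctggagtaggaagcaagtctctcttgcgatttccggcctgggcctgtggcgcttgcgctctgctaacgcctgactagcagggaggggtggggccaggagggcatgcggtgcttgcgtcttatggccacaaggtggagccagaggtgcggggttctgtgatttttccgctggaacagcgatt
Parp4: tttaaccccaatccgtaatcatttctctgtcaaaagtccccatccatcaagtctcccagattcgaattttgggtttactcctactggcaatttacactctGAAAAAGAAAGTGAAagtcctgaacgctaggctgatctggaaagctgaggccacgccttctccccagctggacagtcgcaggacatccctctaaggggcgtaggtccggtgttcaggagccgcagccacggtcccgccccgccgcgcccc
Parp8: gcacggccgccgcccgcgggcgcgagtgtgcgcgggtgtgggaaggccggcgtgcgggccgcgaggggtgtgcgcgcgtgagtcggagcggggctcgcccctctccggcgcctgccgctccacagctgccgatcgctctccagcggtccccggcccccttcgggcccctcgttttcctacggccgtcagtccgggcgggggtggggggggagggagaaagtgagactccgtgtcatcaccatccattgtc
Parp12: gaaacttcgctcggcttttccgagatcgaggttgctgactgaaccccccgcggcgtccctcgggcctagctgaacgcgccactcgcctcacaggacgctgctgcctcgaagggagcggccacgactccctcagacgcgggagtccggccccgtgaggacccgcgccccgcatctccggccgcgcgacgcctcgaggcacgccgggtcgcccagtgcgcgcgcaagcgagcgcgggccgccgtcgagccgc

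The Parp4 window held 2 overlapping interferon-stimulated element matches, starting 150 and 144 bases before the start. The Xrcc5 window held 1 such match on the opposite strand, 164 bases before the start. The Xrcc6 window held 1 E2F match, also on the opposite strand, 46 bases before the start. No match to these letters lay in the windows of Parp3, Parp8 and Parp12. Of the 41 members with a window, 9 held the interferon-stimulated element, which 7.13% of all 32851 windows in the table held. These were 1 of 5 higher members, 4 of 11 lower members and 4 of 25 that did not pass. The higher members Parp9, Parp10 and Parp14 had no window, so the count says nothing of them. Members are counted by gene over 46 windows, as some have more than 1, while the percentages are per window. The gamma-activated site was in 4 members and 7.02% of all windows, the first E2F site in 4 members and 0.895%, the second in 1 member and 0.417%, and the GATA site in 3 members and 9.99%. The GAAANNGAA and TTCNNNGAA matches can overlap each other, and a match describes letters, not binding.

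Across the repair families, 8 members were higher and 12 lower in -77-/- than in wild type libraries, and 33 did not pass the test. All 53 members exceeded the filter on low values and were tested. A gene was called at a limma adjusted p under 0.05, with Benjamini-Hochberg adjustment over all 15821 genes tested. The higher share, 15.1% of members, was near the 16.9% of all tested genes called higher. The lower share was 22.6% of members, beside 15.2% of all tested genes. The libraries of the genotypes did not overlap for 13 members with all -77-/- libraries higher, where this held for 25.0% of all genes, and for 18 members with all -77-/- libraries lower, where it held for 21.4%. The median log2 fold change was -0.14 over the members and 0.10 over all tested genes. The value over all genes depends on genes of low level: it was -0.0045 with the filter at a mean of 50. The authors' deposited table called the same 20 members in the same directions.

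**Figure D1:**
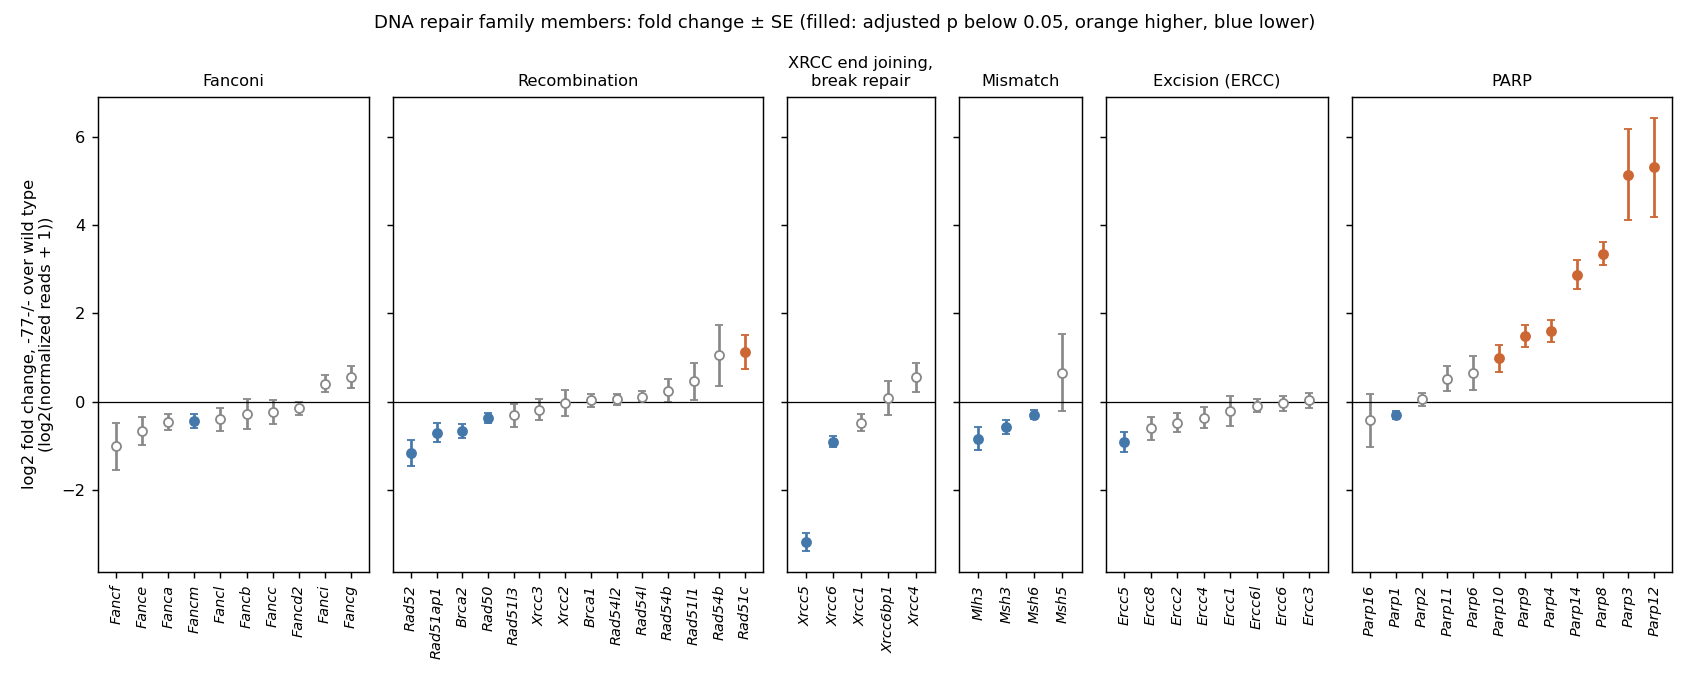
Log2 fold change of each member, -77-/- over wild type, on the log2(normalized reads + 1) scale, with its standard error as the bar and members grouped by role. Filled points passed the test (blue lower, orange higher); 7 of the 8 higher members are PARP genes, and Xrcc5 is the lowest point.

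Fold changes below are given as log2 on the log2(normalized reads + 1) scale with the standard error from limma, and the plain fold is the ratio of the genotypes' mean normalized reads. A normalized read is a gene's read number divided by the library's size factor, so levels are compared between libraries for one gene and not between genes.

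Xrcc5 had the lowest fold change of the 53 members, and its partner Xrcc6 was lower too. Xrcc5 encodes KU80 and Xrcc6 encodes KU70, which together form the ring that threads onto broken DNA ends and recruits the kinase DNA-PKcs. Xrcc5 (ENSMUSG00000026187) had 1472, 1695 and 1501 normalized reads in the wild type libraries and 214, 153 and 157 in the -77-/- libraries. Every -77-/- library was far below every wild type library. The mean was 1556 ± 121 in wild type and 174 ± 33.9 in -77-/- (SD, n = 3 each), 8.92-fold lower, a log2 fold change of -3.16 with an SE of 0.20 (limma, adjusted p = 2.1e-08). Xrcc6 (ENSMUSG00000022471) had 2071, 2313 and 2479 in wild type and 1148, 1182 and 1346 in -77-/- libraries. These groups did not overlap either. The mean fell from 2287 ± 205 to 1225 ± 106 (SD, n = 3 each), 1.87-fold, a log2 fold change of -0.90 with an SE of 0.13 (limma, adjusted p = 8.3e-05).

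The ratio of Xrcc5 to Xrcc6 normalized reads within a library, which is not a ratio per length, was 0.711, 0.733 and 0.606 in wild type and 0.186, 0.129 and 0.117 in -77-/- libraries. The mean ratio was 0.683 ± 0.0681 in wild type and 0.144 ± 0.0370 in -77-/- (SD, n = 3 each), and the exact two-sided permutation p was 0.1, the smallest that 3 against 3 allows. Every -77-/- library had a lower ratio than every wild type library. Xrcc6 shares exon sequence with Desi1 on the opposite strand in GENCODE's GRCm38 annotation, and whether counting used strand was not given in the sources used here; Xrcc5 shares none there.

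**Figure D2:**
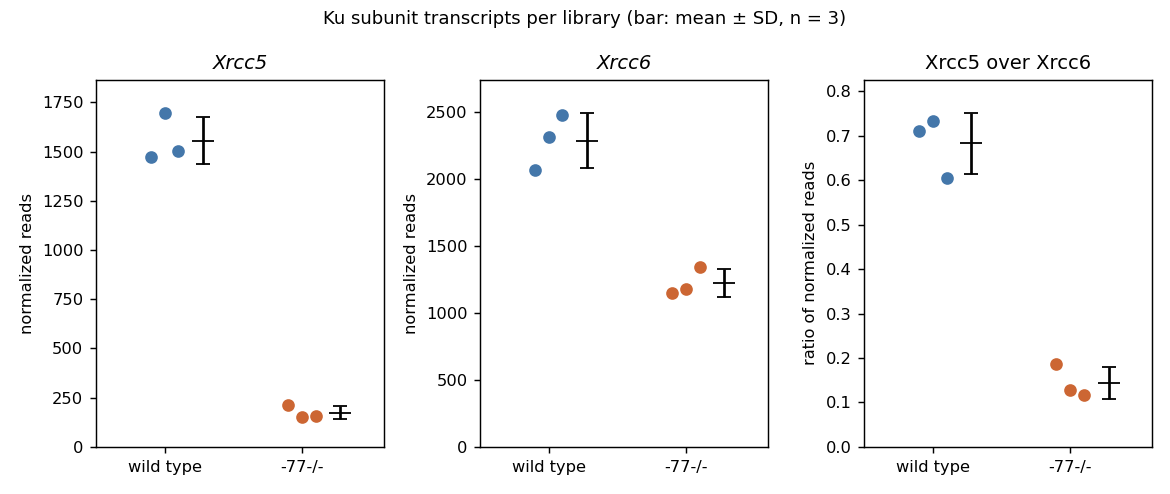
Normalized reads of Xrcc5 and Xrcc6 and their ratio in each library (points), with mean and SD as bars, n = 3 per genotype. The Xrcc5 points lie at 1472 or above in wild type and at 214 or below in -77-/- libraries.

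The other XRCC members of this group did not pass. Xrcc1, the scaffold that brings ligase to single-strand breaks, averaged 641 ± 36.6 in wild type and 463 ± 24.6 in -77-/- libraries, which did not overlap (limma adjusted p = 0.063; 0.047 to 0.15 when 1 library was left out, and 0.047 without wild type replicate 3). Xrcc4, the partner of ligase IV in end joining, averaged 157 and 225. Xrcc6bp1, now Atp23, averaged 136 and 141. Of 9 other tested end joining genes, Aplf, an end joining accessory factor that binds poly(ADP-ribose), was the 1 called, and it was lower (641 to 322, log2 fold change -0.99, limma adjusted p = 0.0031). The lower share was 11.1% of the 9, beside 15.2% of all tested genes, and the median of the 9 was 0.30. Of the others, Polm, a gap-filling polymerase, averaged 107 and 41.2, and Nhej1, the ligation cofactor XLF, averaged 9.97 and 22.9, both past no threshold. Prkdc and Lig4, the direct partners of Ku and XRCC4, are among the 9 and were picked out after the values were seen. Prkdc, which encodes DNA-PKcs, averaged 1984 ± 261 and 1659 ± 150 (limma adjusted p = 0.17). Lig4 averaged 90.4 ± 27.2 and 109 ± 14.1 (limma adjusted p = 0.63).

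The PARP family went mostly the other way. These enzymes transfer ADP-ribose from NAD+ to proteins, DNA or RNA: PARP1, PARP2 and PARP3 sense DNA breaks, while most others act in signalling and antiviral defence. Of its 12 members, 7 were higher, beside 16.9% of all tested genes, 1 was lower and 4 did not pass, with a median log2 fold change of 1.24. The 7 higher members include the break sensor Parp3, and the 1 lower member was the break sensor Parp1.

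Parp8 (ENSMUSG00000021725), a mono-ADP-ribosyltransferase, had 297, 174 and 393 normalized reads in wild type and 2458, 2870 and 3098 in -77-/- libraries. The groups were widely apart. The mean rose from 288 ± 110 to 2809 ± 325 (SD, n = 3 each), 9.75-fold, a log2 fold change of 3.35 with an SE of 0.26 (limma, adjusted p = 1.6e-06). Parp14 (ENSMUSG00000034422), a macrodomain protein known from STAT6 and interferon signalling, had 262, 98.8 and 239 in wild type and 1160, 1565 and 1370 in -77-/- libraries. All wild type libraries were low. The mean rose from 200 ± 88.3 to 1365 ± 203 (SD, n = 3 each), 6.83-fold, a log2 fold change of 2.88 with an SE of 0.33 (limma, adjusted p = 6.1e-05).

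Parp12 (ENSMUSG00000038507), a zinc finger protein of the antiviral response, had 12.2, 26.9 and 0 normalized reads in wild type and 139, 491 and 330 in -77-/- libraries. The gene was near the detection floor in wild type, with 40 reads over the 3 libraries against 1029, and the 0 allows up to 3 reads, or 3.42 normalized reads, in that library. The ratio of means was 24.5 and the log2 fold change 5.31 with an SE of 1.11 (limma, adjusted p = 0.0037). The log2 value was 3.89 without wild type replicate 3, the library at 0, and 6.29 without wild type replicate 2. With 0.1 in place of 1 added before the log2, it was 6.46 (limma, adjusted p = 0.049). With 5 added, it was 4.36 (limma, adjusted p = 1.1e-04). The adjusted p was 0.028 with limma-voom. Parp3 (ENSMUSG00000023249), a nuclear enzyme of break repair and end joining, had 8.44, 3.99 and 0 in wild type and 132, 100 and 155 in -77-/- libraries. It rested on 13 reads in wild type against 414. The ratio of means was 31.1 and the log2 fold change 5.15 with an SE of 1.02 (limma, adjusted p = 0.0012). The log2 value was 4.22 without wild type replicate 3, again the library at 0, and 5.84 without wild type replicate 1. With 0.1 added before the log2, it was 6.39 (limma, adjusted p = 0.0091), and with 5 added, 3.96 (limma, adjusted p = 2.0e-04).

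Parp4 (ENSMUSG00000054509), the ADP-ribosyltransferase of vault particles, had 187, 177 and 158 in wild type and 427, 616 and 551 in -77-/- libraries. The groups were clearly apart. The mean rose from 174 ± 14.3 to 531 ± 96.1 (SD, n = 3 each), 3.06-fold, a log2 fold change of 1.59 with an SE of 0.25 (limma, adjusted p = 1.6e-04).

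The other called PARP genes follow with their means. Parp9, which acts with the ubiquitin ligase DTX3L in interferon-responsive cells, rose from 241 ± 70.8 to 655 ± 49.9 (SD, n = 3 each), 2.72-fold, with a log2 fold change of 1.49 (SE 0.25). Dtx3l, its partner and next neighbour on the chromosome, rose with it, from 677 ± 24.4 to 2029 ± 60.2 (log2 fold change 1.58). The ratio of Parp9 to Dtx3l reads was 0.448, 0.233 and 0.390 in wild type and 0.344, 0.304 and 0.320 in -77-/- libraries, which overlap. Parp10, a mono-ADP-ribosyltransferase, rose from 141 ± 29.2 to 279 ± 45.9 (SD, n = 3 each), with a log2 fold change of 0.99 (SE 0.31). Its limma adjusted p was 0.024, and 0.075, 0.076 and 0.099 without wild type replicate 2, -77-/- replicate 1 or -77-/- replicate 2 (range over the 15 alternatives 0.013 to 0.099).

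Parp1, the abundant sensor of DNA nicks and breaks, fell by 0.29 on the log2 scale (SE 0.09), from 6925 ± 30.5 to 5664 ± 203 (SD, n = 3 each). The libraries did not overlap, and its limma adjusted p was 0.026, rising to 0.052, 0.076, 0.054 and 0.077 without wild type replicate 1, wild type replicate 2, -77-/- replicate 2 or -77-/- replicate 3 (range over the alternatives 0.0052 to 0.077). Parp2, its closest relative, averaged 1027 ± 46.0 and 1066 ± 25.6 and did not pass. Parp6 averaged 111 and 176, Parp11 198 and 290, and Parp16, an enzyme of the endoplasmic reticulum, 85.2 and 65.8, none past the threshold. In the GRCm38 annotation, Parp9 overlaps exons of Dtx3l and Parp3 overlaps Rrp9, each on the opposite strand, and Parp10 overlaps Plec on the same strand. Dtx3l rose as given above, Rrp9 was lower (log2 fold change -1.30) and Plec was higher (1.14). Reads of such overlapping genes cannot be told apart where strand was not used, nor on the same strand. The monocyte and interferon-stimulated genes given at the start rose in the same libraries as these PARP genes, and their part in the PARP result was not tested.

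**Figure D3:**
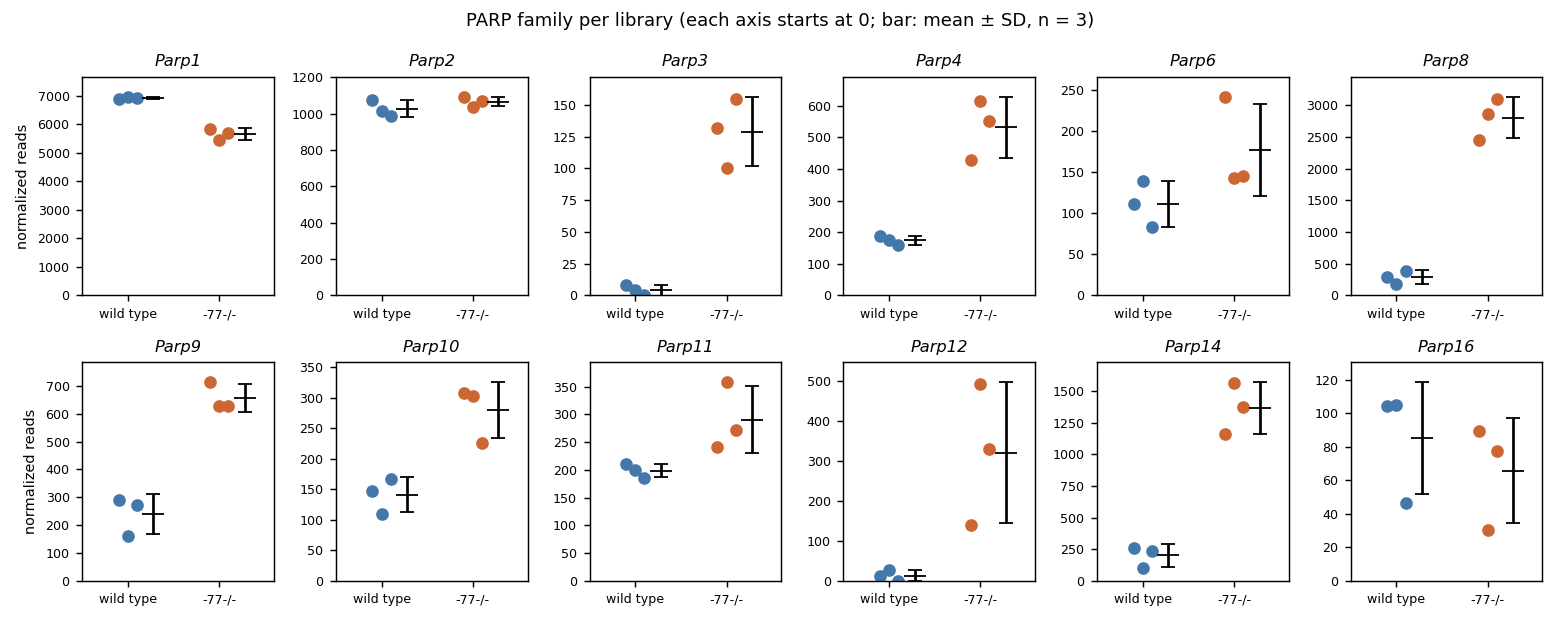
Normalized reads of the 12 PARP genes in each library (points), with mean and SD as bars (n = 3 per genotype, bars cut at 0); each panel has its own axis from 0. Parp8, Parp14, Parp12 and Parp3 show the widest gaps between genotypes, and Parp1 is the one called lower in -77-/-.

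In the homologous recombination group, 4 of 14 members were lower and 1 higher, and 9 did not pass. The 14 count Rad54b under both its identifiers and include Rad54l2 by its name. Over all tested genes 15.2% were lower and 16.9% higher. The lower members were 28.6% of the group and the higher 7.14%. Rad52 (ENSMUSG00000030166), which anneals single strands, had 316, 341 and 411 normalized reads in wild type and 132, 140 and 217 in -77-/- libraries. The mean fell from 356 ± 49.4 to 163 ± 46.8 (SD, n = 3 each), 2.19-fold, a log2 fold change of -1.15 with an SE of 0.29 (limma, adjusted p = 0.0068). Brca2 (ENSMUSG00000041147), a recombination mediator, had 2486, 2428 and 1737 in wild type and 1228, 1563 and 1382 in -77-/- libraries. The lowest wild type library was close to the highest -77-/- library, without overlap. The mean fell from 2217 ± 417 to 1391 ± 168 (SD, n = 3 each), a log2 fold change of -0.66 with an SE of 0.16 (limma, adjusted p = 0.0042).

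Rad51ap1 (ENSMUSG00000030346), a stimulator of strand pairing, had 692, 592 and 999 in wild type and 485, 518 and 383 in -77-/- libraries. The mean was 761 ± 212 and 462 ± 70.2 (SD, n = 3 each), a log2 fold change of -0.69 with an SE of 0.22 (limma, adjusted p = 0.025). Rad50 (ENSMUSG00000020380), of the MRE11 complex that tethers and trims ends, had 3028, 2926 and 2659 in wild type and 2059, 2395 and 2210 in -77-/- libraries. Its mean fell from 2871 ± 190 to 2222 ± 168 (SD, n = 3 each), a log2 fold change of -0.37 with an SE of 0.12 (limma, adjusted p = 0.023). Rad51c (ENSMUSG00000007646), a recombination gene of the strand exchange family, was the 1 recombination member that was higher, with 100, 67.9 and 109 in wild type and 168, 257 and 185 in -77-/- libraries. Its mean was 92.5 ± 21.9 and 203 ± 47.1 (SD, n = 3 each), a log2 fold change of 1.13 with an SE of 0.38 (limma, adjusted p = 0.032).

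The calls of Rad51ap1, Rad50 and Rad51c were lost when certain single libraries were left out. Rad51ap1 had adjusted p values of 0.053, 0.094, 0.051 and 0.12 without wild type replicate 1, wild type replicate 3, -77-/- replicate 1 or -77-/- replicate 3. Rad50 had 0.079, 0.072, 0.084 and 0.074 without wild type replicate 1, wild type replicate 2, -77-/- replicate 1 or -77-/- replicate 3. Rad51c had 0.051, 0.091, 0.16 and 0.083 without wild type replicate 1, wild type replicate 2, -77-/- replicate 2 or -77-/- replicate 3, and 0.052 with edgeR. Over their 15 alternatives the adjusted p ran from 0.015 to 0.12 for Rad51ap1, 0.014 to 0.084 for Rad50 and 0.02 to 0.16 for Rad51c.

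The other recombination members did not pass. Brca1, a partner of BRCA2 in strand exchange, averaged 2032 ± 359 and 2055 ± 68.3 (log2 fold change 0.03, SE 0.14). The family members Rad51l1 (Rad51b), Rad51l3 (Rad51d), Xrcc2 and Xrcc3 averaged 99.0 and 138, 358 and 287, 370 and 361, and 328 and 290. The motor protein genes Rad54l and Rad54l2 averaged 1737 and 1883, and 1677 and 1744. Rad54b averaged 296 and 351 under one identifier (ENSMUSG00000078773) and 28.6 and 58.5 under the other (ENSMUSG00000066307), and reads may be split between them.

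Of 43 other tested genes of recombination and break signalling, 12 were lower (27.9%) and 2 higher (4.65%), with a median of -0.24. The shares of all tested genes were 15.2% and 16.9%. Rmi1, of the BLM dissolution complex, fell from 438 to 217 (log2 fold change -1.06), and Rad17, the checkpoint clamp loader, from 983 to 474 (-1.05). Dmc1, the meiotic recombinase, averaged 11.95 and 19.5 and did not pass. Both higher genes, named after their values were seen, were Brip1, a helicase that binds BRCA1 (log2 fold change 0.82), and Trp53bp1, which limits end trimming (0.75).

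Mismatch repair genes were lower in 3 of 4 members, beside 15.2% of all tested genes, none was higher, and the median log2 fold change was -0.43. MSH3 and MSH6 recognise mispaired bases and small loops, and MLH3 acts after them in processing the new strand. Mlh3 (ENSMUSG00000021245) had 392, 336 and 362 normalized reads in wild type and 247, 192 and 175 in -77-/- libraries. Its mean fell from 364 ± 27.97 to 205 ± 37.8 (SD, n = 3 each), a log2 fold change of -0.84 with an SE of 0.26 (limma, adjusted p = 0.021). Msh3 (ENSMUSG00000014850) had 1001, 1119 and 936 in wild type and 645, 724 and 676 in -77-/- libraries. All -77-/- libraries lay below all wild type libraries. Its mean fell from 1018 ± 92.7 to 682 ± 40.1 (SD, n = 3 each), a log2 fold change of -0.58 with an SE of 0.16 (limma, adjusted p = 0.011).

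Msh6 (ENSMUSG00000005370) had 4553, 4831 and 4642 in wild type and 3977, 3646 and 3837 in -77-/- libraries. These groups did not overlap. Its mean fell from 4675 ± 142 to 3820 ± 166 (SD, n = 3 each), a log2 fold change of -0.29 with an SE of 0.10 (limma, adjusted p = 0.036).

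All 3 mismatch calls were lost in some fits with 1 library left out. Msh6 missed the threshold without any one of the 6 libraries (adjusted p 0.050 to 0.12). Msh3 missed it without wild type replicate 2 (0.052), and Mlh3 without wild type replicate 1 (0.072), -77-/- replicate 2 (0.068) or -77-/- replicate 3 (0.092). Over the 15 alternatives the adjusted p ran from 0.015 to 0.12 for Msh6, 0.0066 to 0.052 for Msh3 and 0.016 to 0.092 for Mlh3. In the GRCm38 annotation Msh6 overlaps Fbxo11 on the opposite strand.

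Msh5, a meiotic member, averaged 24.9 and 34.6 and did not pass. Of 17 other tested mismatch repair genes, 4 were lower (23.5%) and 1 higher (5.88%), with a median of -0.24. The shares of all tested genes were 15.2% and 16.9%. Pms1 fell from 455 to 255 (log2 fold change -0.81), and Rfc4, of the clamp loader, from 1126 to 644 (-0.81). Pold4, the small polymerase delta subunit, rose from 40.2 to 152 (2.14).

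Of the 10 Fanconi members, 1 was lower, a share below the 15.2% of all tested genes, and none was higher, with a median of -0.33. Fancm (ENSMUSG00000055884), the translocase that anchors the core complex to DNA, had 1389, 1263 and 1549 normalized reads in wild type and 882, 1150 and 1090 in -77-/- libraries. The groups lay close, without overlap. The mean was 1400 ± 143 and 1041 ± 141 (SD, n = 3 each), a log2 fold change of -0.43 with an SE of 0.15 (limma, adjusted p = 0.041). The adjusted p was 0.054 with edgeR and 0.089, 0.11, 0.15 and 0.076 without wild type replicate 1, wild type replicate 3, -77-/- replicate 1 or -77-/- replicate 3 (range over the alternatives 0.033 to 0.15).

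The other core complex genes did not pass. Fanca averaged 785 ± 121 and 565 ± 35.3 (adjusted p = 0.062), Fancb 165 and 136, Fancc 335 and 283, Fance 268 and 168, Fancf 119 and 63.3, Fancg 218 and 322, and Fancl, the ubiquitin ligase, 432 and 314. Fancb lies on the X chromosome and was highest, at 196, in wild type replicate 2, the library with high Xist. Autosomal members such as Fancc and Fance were highest in that library too, while others such as Fanca and Fancl were not. The targets of that ligase, Fancd2 and Fanci, averaged 1164 and 1051, and 553 and 739. Neither passed by itself (limma adjusted p = 0.48 for Fancd2 and 0.12 for Fanci). The ratio of Fanci to Fancd2 reads was 0.475 ± 0.0192 in wild type and 0.705 ± 0.122 in -77-/- libraries without overlap (exact two-sided permutation p = 0.1, the smallest that 3 against 3 allows). In the GRCm38 annotation Fanci overlaps exons of Polg, which was lower (log2 fold change -0.48), and Fancd2 overlaps Fancd2os, each on the opposite strand. Of 16 other tested Fanconi pathway genes, 4 were lower (25.0%) and 1 higher (6.25%), with a median of -0.38. Over all tested genes these shares were 15.2% and 16.9%. Helq, a helicase, fell from 353 to 203 (log2 fold change -0.77). Fan1, a nuclease, averaged 144 and 69.9 and Hes1 9.82 and 32.4, neither past the threshold.

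Of the 8 ERCC members, 1 was lower (12.5%, beside 15.2% of all tested genes) and 7 did not pass, with a median of -0.28. Ercc5 (ENSMUSG00000026048) encodes XPG, the nuclease that cuts on the 3′ side of a lesion. It had 516, 503 and 462 normalized reads in wild type and 314, 248 and 232 in -77-/- libraries. All -77-/- libraries were below all wild type libraries. The mean fell from 493 ± 28.4 to 265 ± 43.5 (SD, n = 3 each), 1.86-fold, a log2 fold change of -0.91 with an SE of 0.23 (limma, adjusted p = 0.0063). Ercc1 and Ercc4, the nuclease of the 5′ side, averaged 153 and 132, and 441 and 343. The TFIIH helicase genes Ercc2 and Ercc3 averaged 435 and 316, and 796 and 815. Ercc6 and Ercc8, the Cockayne syndrome genes, averaged 872 and 841, and 376 and 246. Ercc6l averaged 1215 and 1139. It too is X-linked and was highest, at 1366, in wild type replicate 2. So were the autosomal Ercc1 and Ercc2, and no other ERCC member.

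Of 22 other tested nucleotide excision genes, 10 were lower (45.5%, beside 15.2% of all tested genes) and 1 higher, with a median of -0.49. Gtf2h3, a TFIIH subunit, fell from 975 to 372 (log2 fold change -1.39), and Cdk7, the TFIIH kinase, from 1568 to 774 (-1.04). The 1 higher gene was Xpc, the damage sensor. Of 22 other tested base excision genes, 4 were lower (18.2%) and 2 higher (9.09%), with a median of -0.10; Neil1, Mutyh and Nthl1, all glycosylases, did not pass (means 16.3 and 59.1, 67.5 and 89.7, and 61.98 and 34.2).

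**Figure D4:**
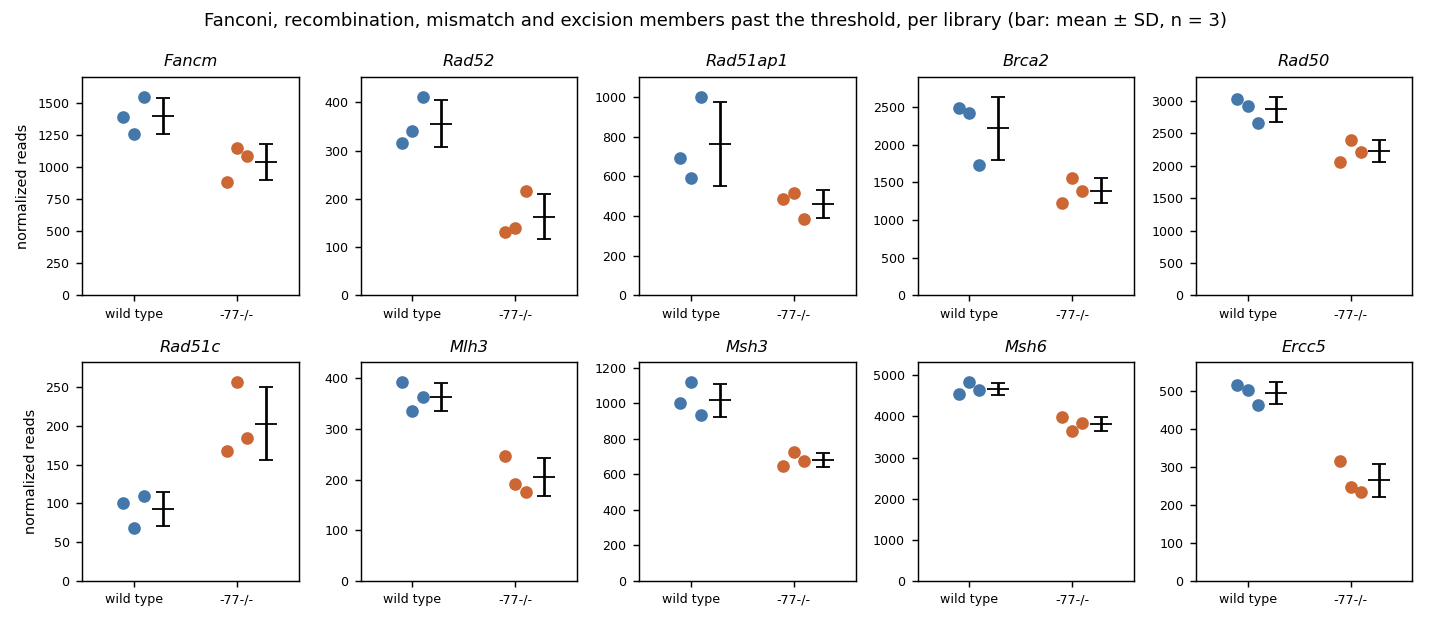
Normalized reads of the called members of the Fanconi, recombination, mismatch and excision groups in each library (points), with mean and SD as bars (n = 3 per genotype) and each axis from 0. Rad51c is the one panel in which the -77-/- libraries are the higher ones.

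Many repair genes are transcribed around S phase, so genes of proliferation were set beside them. Of 32 tested replication genes, 6 were lower (18.8%, beside 15.2% of all tested genes) and none higher, with a median of -0.16. More of them were lower by overlap of libraries. For 15 of the 32, every deletion library lay below every wild type library, where this held for 21.4% of all genes. The reverse held for 1 of the 32, beside 25.0% of all genes. Ccne1, cyclin E1, fell from 2738 to 927 (log2 fold change -1.58), and the primase genes Prim1 and Prim2 from 1633 to 1104 (-0.56) and from 1602 to 1120 (-0.50). Of 26 genes of G2 and M phase, 5 were lower (19.2%) and 2 higher (7.69%), with a median of -0.11. Every deletion library lay below every wild type library for 10 of the 26, and above for 2. Ccna2 fell from 3808 to 2324 (-0.71), while Foxm1 rose from 742 to 1317 (0.83) and Kif23 from 1536 to 2357 (0.63). Of 19 tested p53 targets, 4 were higher (21.1%) and 3 lower (15.8%), near the shares of all tested genes, with a median of 0.06. Pmaip1, the death gene Noxa, rose from 386 to 2828 (2.88) and Trp53inp1 from 46.5 to 317 (2.81), while Phlda3 averaged 26.2 and 4.62 and did not pass. Some of these lists share genes, and the part of proliferation in the repair gene result was not tested.

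**Figure D5:**
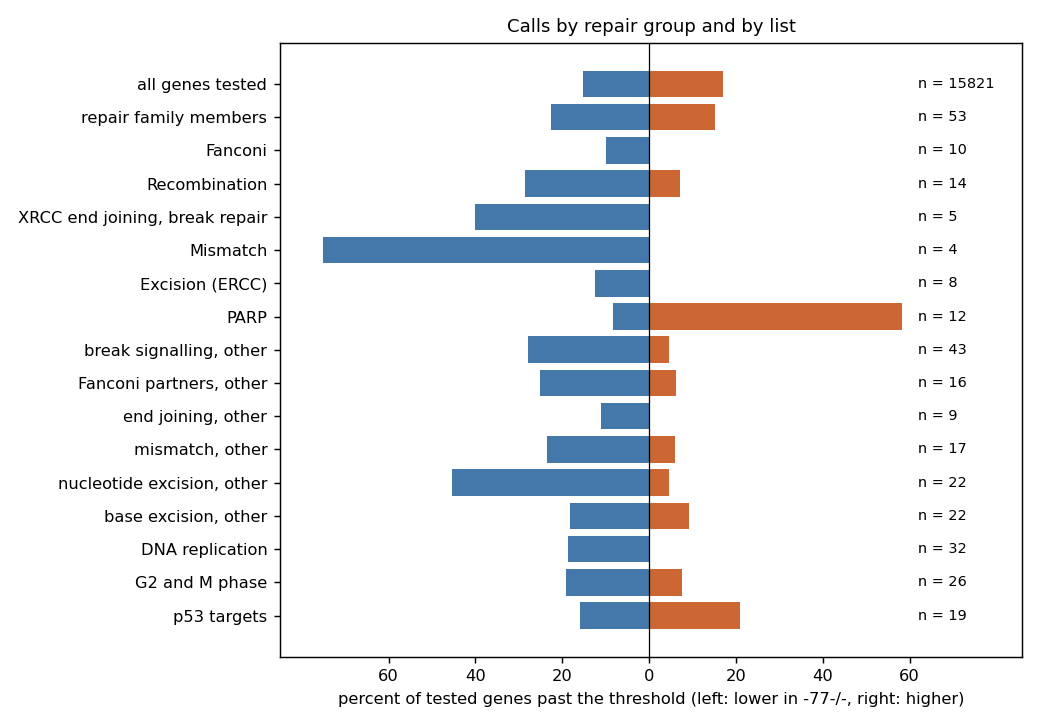
Percent of tested genes past the threshold in each repair group, in lists of other genes of the same pathways and over all genes (left, blue: lower in -77-/-; right, orange: higher), with the number tested at the right. The PARP bar extends to the right (58.3% higher), the mismatch bar to the left (75.0% lower).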

How the data were processed

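RNA was measured in 3 wild type and 3 -77-/- libraries, grouped by the genotype label; replicates were numbered in record order. Per the submitters' processing notes, the tools were STAR 2.5, RSEM 1.2.31, Bowtie and DESeq2 on build mm9; what each did, which annotation was taken and whether counting was stranded is not given in the sources used here. Library columns as deposited were a normalized signal: gene counts that the authors divided by 1 size factor per library, so that 100% of values were whole multiples of 1 read (tolerance 0.01), worth 0.854 to 1.14. The authors' deposited log2 fold changes and adjusted p-values were set beside the calls and used for nothing else. In 8 of 19444 rows the cells were shifted, and they were left out. The worth of a read sets the precision of low genes: a floor of 3 reads is 2.56 to 3.42 normalized reads, for counting error only.

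limma 3.58.1 (R 4.3.3; eBayes with trend and robust settings) was fitted on log2(value + 1) to the 15821 genes with a mean of at least 10 in the higher genotype, with Benjamini-Hochberg adjustment and a threshold of 0.05. The scripts were tested on simulated data. Alternatives were other pseudocounts and filters, TMM scaling, edgeR 4.0.16, DESeq2 1.42.0 and limma-voom on the recovered reads, a fit that was not robust, and each library left out. Every member reported is named, and 3 members are not reported here; in each group up to 5 called members with the largest change get all values, and of other lists up to 3 genes with the largest change are named. Members, lists and tests were chosen with earlier results of these data known. Of 318 list entries 7 had no row. Promoters are RefSeq's, matched by symbol, since the table holds no coordinates.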

Additional observations from a re-analysis of the deposited data

How the results depend on the processing

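Of the 20 called members, 11 kept the call under all 15 alternatives run (Xrcc5, Xrcc6, Ercc5, Parp9, Parp4, Parp14, Parp8, Parp3, Parp12, Rad52 and Brca2), and 9 lost it under at least 1, with 35 losses in all. Of these losses 33 came from leaving out a library and 2 from edgeR (Fancm and Rad51c); each changed fit has fewer samples or another model. When 1 library was left out, the count of lower members ran from 6 to 10, with 6 without wild type replicate 1 and 6 without -77-/- replicate 3, and the count of higher members from 6 to 8. Among members that did not pass, Xrcc1 passed with a filter at 50, with the fit that was not robust and without wild type replicate 3, and Fanca with a filter at 50. Of the members that did not pass, 6 changed sign when 1 library was left out, with log2 fold changes from -0.053 to 0.36 for Xrcc6bp1, -0.14 to 0.13 for Ercc6, -0.026 to 0.11 for Ercc3, -0.80 to 0.060 for Parp16, -0.30 to 0.19 for Xrcc2 and -0.12 to 0.13 for Brca1; the cause was not tested. Depth limits Parp3 and Parp12 in wild type, which rest on 13 and 40 reads. Parp12 kept its call narrowly with a pseudocount of 0.1, at a limma adjusted p of 0.049. No paired analysis was possible because the labels carry no replicate numbers shared by the genotypes.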

Other observations

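The genes next to the members with the widest differences were looked up after the values were seen, with gene order from RefSeq on GRCm38 and no coordinates used. Parp14, Dtx3l and Parp9 follow each other on the chromosome and all were higher in -77-/- libraries. On one side of them Hspbap1 averaged 251 and 321 normalized reads and on the other Kpna1 2744 and 2314, neither past the limma threshold. Further out, past Hspbap1, Dirc2 (Slc49a4) rose from 328 to 728 (log2 fold change 1.17, limma adjusted p = 4.6e-04). Emb, the immunoglobulin superfamily protein embigin and the gene after Parp8, rose from 496 to 7375 (log2 fold change 3.92), while Pelo on the other side averaged 291 and 169 and did not pass, and Mrps30, further on past Emb, fell from 994 to 641 (-0.63). Near Xrcc5, Pecr, a peroxisomal reductase, fell from 185 to 60.8 (log2 fold change -1.61, limma adjusted p = 0.0067), while the next gene, March4, averaged 48.5 and 104 and did not pass, and Smarcal1, a replication fork remodeller, averaged 407 and 393 (log2 fold change -0.05). Beside Xrcc6, the adjacent gene Desi1 (Pppde2) averaged 908 and 761 and did not pass (log2 fold change -0.25, adjusted p = 0.23), while further out Pmm1 fell from 512 to 186 (log2 fold change -1.44) and Nhp2l1 (Snu13), a snoRNP protein, from 2680 to 1504 (-0.83). Beside Parp12, Jhdm1d (Kdm7a), a histone demethylase, rose from 1114 to 2660 (1.25). The gene after it on that side, Slc37a3, fell from 97.5 to 19.6 (-2.07, limma adjusted p = 0.038). On the other side Tbxas1 averaged 34.0 and 61.4 and did not pass. Beside Parp3, Rrp9 fell from 719 to 281 (log2 fold change -1.30). On the other side Gpr62 was below the filter, and Pcbp4, past it, rose from 68.0 to 260 (2.02, limma adjusted p = 0.0018). Abhd14b, further out, averaged 35.3 and 41.2 and did not pass.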
